A study of Mus musculus with 27 samples.

Results

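Tri PD1-KLRG1+ cells were compared with Iso PD1-KLRG1- cells, both CD8+ T cells sorted from mouse tumours, by RNA-seq read counts per gene. The libraries were chosen by the treatment and sort gate in their labels, which gave 8 of the 27 libraries of the series, 4 in each group. Tri PD1-KLRG1+ cells came from mice under a combined therapy, written TCT in the series text without a list of its components, and lacked PD-1 but carried KLRG1 at the surface. Iso PD1-KLRG1- cells came from mice given an isotype control, an antibody without a target, and carried neither marker. Treatment and KLRG1 gate thus change together, and the 5 Tri PD1-KLRG1- libraries, which carried neither marker under the combined treatment, were used to split the difference. All groups share the MC38 tumour, derived from a mouse colon adenocarcinoma line, and a sort on CD45, CD3, CD8, PD-1 and KLRG1. The labels enter MC38 as the strain and give no mouse strain, age or sex. They do not state that each library came from a separate mouse, so p-values measure the spread between these samples, which may be technical.

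KLRG1 is a lectin-like receptor that accumulates on late effector CD8+ T cells, which kill target cells with granzymes and perforin and respond to inflammatory chemokines. Memory-like and naive CD8+ T cells instead express CCR7, which guides them into lymph nodes, and transcription factors such as TCF-1 and ID3 that sustain the capacity to divide. PD-1, the product of Pdcd1, restrains T cell receptor signals in cells that have met antigen.

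Totals ran from 8586184 to 11989076 counts in Tri PD1-KLRG1+ libraries and from 11602005 to 26284630 in Iso PD1-KLRG1- libraries. Pairwise correlations of log2 CPM (counts scaled for library size) between libraries of a group, across the 14008 genes tested, were 0.842 to 0.914 in Tri PD1-KLRG1+ and 0.851 to 0.905 in Iso PD1-KLRG1-. At the depth of the smallest library, 11361 to 13220 genes had a count in Tri PD1-KLRG1+ libraries, against 14173 to 14990 in Iso PD1-KLRG1- libraries. Iso PD1-KLRG1- replicate 4 stood apart, with 6030 CPM of summed myeloid marker transcripts against 1209 to 2285 in the other 3 libraries of its group.

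A gene of the sort that follows the labels, such as Klrg1, is no finding. Klrg1 (ENSMUSG00000030114) was at 219, 250.5, 344 and 181 CPM in Tri PD1-KLRG1+ libraries, and at 2.49, 0.191, 0 and 4.39 CPM in Iso PD1-KLRG1- libraries. Pdcd1 (ENSMUSG00000026285) was low in both, at 89.8 ± 53.9 CPM in Tri PD1-KLRG1+ and 56.7 ± 21.3 CPM in Iso PD1-KLRG1- libraries (SD, n = 4 each), with an adjusted p of 0.327 (edgeR). The defining transcripts of CD8+ T cells were abundant in both groups. Cd8a averaged 1183 ± 83.3 CPM in Tri PD1-KLRG1+ and 1194 ± 63.4 CPM in Iso PD1-KLRG1- libraries, and Cd4 had no count in any of the 8. Of the late effector markers, Klrg1 and Gzma were high in Tri PD1-KLRG1+ cells and Zeb2 and S1pr5 were at low levels. The memory markers Ccr7, Id3, Tcf7 and Lef1 had lower means in Tri PD1-KLRG1+ than in Iso PD1-KLRG1- libraries.

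Across all genes, 405 of 14008 were called at an adjusted p under 0.05 (2.89%; edgeR quasi-likelihood test, Benjamini-Hochberg). Of these, 181 were higher (1.29%) and 224 lower (1.6%) in Tri PD1-KLRG1+ cells, and 2093 had an unadjusted p under that value. Over every gene tested the log2 fold changes had a median of -0.11, and list medians below are read beside it. Counts of list members called are read beside the 1.29% higher and 1.6% lower of all genes. Libraries of the groups did not overlap in 131 of the 181 genes called higher and in 116 of the 224 called lower, against 11.0% of all genes tested in either direction. Leaving out 1 library moved these counts: the 181 became 116 without Tri PD1-KLRG1+ replicate 1 and 111 without either Iso PD1-KLRG1- replicate 2 or 3. The 224 became 113, 139 and 119 without Tri PD1-KLRG1+ replicates 1, 3 and 4, and 109 and 142 without Iso PD1-KLRG1- replicates 2 and 3.

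**Figure D1:**
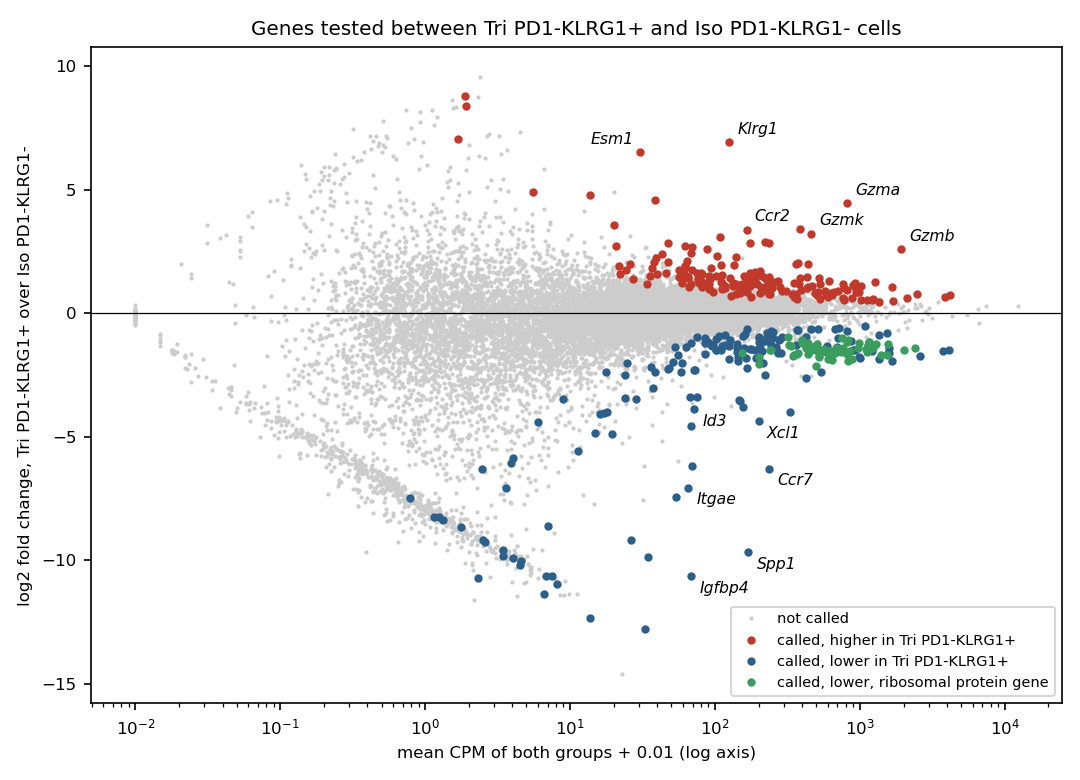
Log2 fold change of Tri PD1-KLRG1+ over Iso PD1-KLRG1- cells for each of the 14008 genes tested (vertical axis) against the mean CPM of both groups plus 0.01 (horizontal log axis). Coloured points are the 405 called genes, with ribosomal protein genes in green: the abundant called genes include granzymes above 0 and ribosomal protein genes below it.

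Gzma, Gzmb and Gzmk transcripts were higher in Tri PD1-KLRG1+ cells. Gzma (ENSMUSG00000023132), encoding granzyme A, was at 1243, 2468, 1656 and 866 CPM in Tri PD1-KLRG1+ libraries, against 63.2, 80.7, 96.8 and 41.0 CPM in Iso PD1-KLRG1- libraries. Every Tri PD1-KLRG1+ library lay above every Iso PD1-KLRG1- library, and the log2 fold change was 4.46 ± 0.79 (SE, edgeR adjusted p = 0.00161). Gzmb (ENSMUSG00000015437), encoding granzyme B, was at 3315, 3911, 3185 and 2764 CPM in Tri PD1-KLRG1+ libraries, against 562, 532, 552 and 522 CPM in Iso PD1-KLRG1- libraries. The Iso PD1-KLRG1- values lay within a narrow band, and the log2 fold change was 2.60 ± 0.18 (adjusted p = 1.25e-08). Gzmk (ENSMUSG00000042385), a granzyme of less differentiated effector and memory cells, was at 858, 940, 879 and 656 CPM in Tri PD1-KLRG1+ libraries, against 96.7, 100.7, 113 and 56.4 CPM in Iso PD1-KLRG1- libraries. Its log2 fold change was 3.21 ± 0.28 (adjusted p = 1.27e-07), again with no overlap.

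Serpinb9 and Serpinb6b also rose. Serpinb9 (ENSMUSG00000045827), which encodes an inhibitor of granzyme B, was at 477, 330, 434 and 419 CPM in Tri PD1-KLRG1+ libraries, against 48.7, 58.9, 45.4 and 81.6 CPM in Iso PD1-KLRG1- libraries (log2 fold change 2.85 ± 0.22, edgeR adjusted p = 3.58e-08). Serpinb6b, a serpin of the same clade, averaged 174 ± 57.1 CPM in Tri PD1-KLRG1+ and 34.2 ± 14.3 CPM in Iso PD1-KLRG1- libraries (adjusted p = 4.91e-05). Of 19 granule cytotoxicity genes tested, 7 rose and 1 fell, and the list median was 0.49. Perforin (Prf1), which opens the membrane of the target cell, was among the risers, at 253 ± 81.8 CPM in Tri PD1-KLRG1+ and 100.5 ± 38.4 CPM in Iso PD1-KLRG1- libraries (log2 fold change 1.33, adjusted p = 0.00338). Nkg7, a granule membrane protein, rose by 0.65 ± 0.16 (adjusted p = 0.0219). That call ended without Tri PD1-KLRG1+ replicate 2 (0.128) and without Iso PD1-KLRG1- replicates 1 (0.0835), 2 (0.0816) and 4 (0.0833). The gene that fell, Gzmf, belongs to a cluster of closely similar granzyme genes between which reads may be split, and averaged 0.651 ± 1.30 CPM in Tri PD1-KLRG1+ and 11.4 ± 7.05 CPM in Iso PD1-KLRG1- libraries (adjusted p = 0.0458). Gzmf was no longer called without Tri PD1-KLRG1+ replicate 1, 2 or 3 or Iso PD1-KLRG1- replicate 2 or 3. Prf1 and Gzmf were chosen after their values were seen.

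Ligands and cytokines moved both ways. Fasl (ENSMUSG00000000817), the ligand of the death receptor FAS, was at 619, 424, 638 and 639 CPM in Tri PD1-KLRG1+ libraries, against 169, 66.3, 177 and 173 CPM in Iso PD1-KLRG1- libraries. Replicate 2 was the lowest library of each group, the groups did not overlap, and the log2 fold change was 1.99 ± 0.25 (edgeR adjusted p = 4.91e-05). Xcl1 (ENSMUSG00000026573), a chemokine that attracts cross-presenting dendritic cells, was at 22.4, 17.4, 26.0 and 8.50 CPM in Tri PD1-KLRG1+ libraries, against 439, 534, 301 and 251 CPM in Iso PD1-KLRG1- libraries. It fell by 4.39 ± 0.63 on the log2 scale (adjusted p = 0.000211), and all 4 Iso PD1-KLRG1- libraries lay above all 4 of the other group. Lta, which encodes lymphotoxin alpha, fell by 2.19 ± 0.46 (adjusted p = 0.00794), and Ltb, its partner subunit, by 0.74 ± 0.16 (adjusted p = 0.0101). The Lta call ended in the libraries whose names lack an RNA-number suffix (0.0696), over all 27 libraries (0.477) and by limma-voom (0.161). The Ltb call ended without Tri PD1-KLRG1+ replicates 1 (0.0585) and 4 (0.0804) and without Iso PD1-KLRG1- replicate 3 (0.0505). Of 15 genes in this list 2 rose and 3 fell; the other riser, the chemokine gene Ccl5 (adjusted p = 0.0410), was no longer called without any 1 of the 8 libraries. Ifng, the effector cytokine interferon gamma, averaged 165 ± 66.7 CPM in Tri PD1-KLRG1+ and 134 ± 56.6 CPM in Iso PD1-KLRG1- libraries (adjusted p = 0.88), and Tnf was at 37.4 ± 17.2 and 44.9 ± 9.43 CPM in the same order (adjusted p = 0.928).

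Late effector genes were higher as a group. Of 20 tested, 12 rose, none fell and 19 had a positive log2 fold change, with a median of 1.23. The list holds Klrg1 itself, and it was drawn up with earlier results of these libraries known, so its direction is not independent evidence. Bhlhe40 (ENSMUSG00000030103), a transcription factor of activated T cells, was at 660, 482, 599 and 646 CPM in Tri PD1-KLRG1+ libraries, against 174, 96.1, 137 and 180 CPM in Iso PD1-KLRG1- libraries (log2 fold change 2.03 ± 0.19, edgeR adjusted p = 3.82e-07). Id2, which promotes effector differentiation by binding E proteins, averaged 1773 ± 375 CPM in Tri PD1-KLRG1+ and 751 ± 232 CPM in Iso PD1-KLRG1- libraries (1.256 ± 0.22, adjusted p = 0.00148). Anxa2, an annexin of migrating effector cells, rose by 1.17 ± 0.13 (adjusted p = 6.47e-06). The groups did not overlap for Bhlhe40, Id2 or Anxa2. In a fit of only the libraries whose names lack an RNA-number suffix, 5 list members were called.

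Other late effector regulators were less clear. Zeb2, a repressor that drives terminal effector differentiation, was at 34.9, 15.4, 41.3 and 44.3 CPM in Tri PD1-KLRG1+ libraries, against 6.13, 5.06, 8.70 and 18.4 CPM in Iso PD1-KLRG1- libraries. The groups overlapped, and its adjusted p of 0.0489 (edgeR, log2 fold change 1.91 ± 0.53) stayed under the threshold in 6 of 19 alternative fits, with a highest value of 0.237. It exceeded the threshold without Tri PD1-KLRG1+ replicates 1 (0.133), 3 (0.143) and 4 (0.12) and without Iso PD1-KLRG1- replicates 1 (0.143), 2 (0.169) and 3 (0.111). Cx3cr1, a chemokine receptor of circulating effector cells, was at 94.3, 29.5, 47.7 and 150.3 CPM in Tri PD1-KLRG1+ libraries and at 14.2, 18.1, 40.6 and 84.0 CPM in Iso PD1-KLRG1- libraries (adjusted p = 0.231). S1pr5, a receptor for egress into blood, ranged from 17.5 to 65.7 CPM in Tri PD1-KLRG1+ and from 1.34 to 18.02 CPM in Iso PD1-KLRG1- libraries (adjusted p = 0.54). Both missed the threshold in all 19 alternatives.

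Memory and lymph node homing genes were lower in Tri PD1-KLRG1+ cells. Ccr7 (ENSMUSG00000037944), the receptor that guides T cells into lymph nodes, was at 7.69, 4.94, 3.26 and 7.59 CPM in Tri PD1-KLRG1+ libraries, against 562, 423, 393 and 488 CPM in Iso PD1-KLRG1- libraries. The log2 fold change was -6.30 ± 0.57 (edgeR adjusted p = 2.52e-07), with the highest Tri PD1-KLRG1+ library far under the lowest Iso PD1-KLRG1- library. Id3 (ENSMUSG00000007872), an inhibitor of E proteins kept high in memory precursors, was at 12.04, 5.29, 11.4 and 7.36 CPM in Tri PD1-KLRG1+ libraries, against 155, 89.2, 199.7 and 96.9 CPM in Iso PD1-KLRG1- libraries. Groups did not overlap, and Id3 fell by 3.90 ± 0.90 on the log2 scale (adjusted p = 0.0188). Its adjusted p passed the threshold without Tri PD1-KLRG1+ replicates 1 (0.0573), 2 (0.0523), 3 (0.0511) and 4 (0.0702) and without Iso PD1-KLRG1- replicate 3 (0.0737). Foxp1, a transcription factor of T cell quiescence, averaged 94.7 ± 17.5 CPM in Tri PD1-KLRG1+ and 261 ± 33.7 CPM in Iso PD1-KLRG1- libraries (log2 fold change -1.46 ± 0.23, adjusted p = 0.000519). Of 20 stem-like and memory genes tested 4 fell, none rose, and 15 had a negative value, with a median of -1.01. The 4 became 2 without Tri PD1-KLRG1+ replicate 1 or 3 or Iso PD1-KLRG1- replicate 3.

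For Tcf7 the call differed between fits. Tcf7, encoding the transcription factor TCF-1, was at 126, 95.3, 101.7 and 124.5 CPM in Tri PD1-KLRG1+ libraries, against 625, 693, 520.2 and 830 CPM in Iso PD1-KLRG1- libraries. The groups did not overlap, yet adjusted p was 0.179 with the spread estimated over 23 libraries of 5 groups (edgeR). In a fit of the 8 libraries alone, the log2 fold change was -2.55 ± 0.18 (adjusted p = 3.84e-05). Tcf7 passed in 3 of 19 alternatives, this fit, limma-voom (0.000158) and the fit without a low-count filter (2.13e-19), and not in the libraries without the RNA-number suffix (0.321) or with all 27 (0.459). Klf2, a transcription factor of T cell quiescence and trafficking, averaged 236 ± 33.8 CPM in Tri PD1-KLRG1+ and 483 ± 19.9 CPM in Iso PD1-KLRG1- libraries, with an adjusted p of 0.661 over 23 libraries and 0.0106 over the 8 alone, and of 0.0348 by limma-voom and 0.00729 without a low-count filter. Klf2 was chosen after its values were seen. Lef1, a partner of TCF-1, averaged 164 ± 55.7 CPM in Tri PD1-KLRG1+ and 275 ± 18.04 CPM in Iso PD1-KLRG1- libraries (adjusted p = 0.219) and passed in none.

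**Figure D2:**
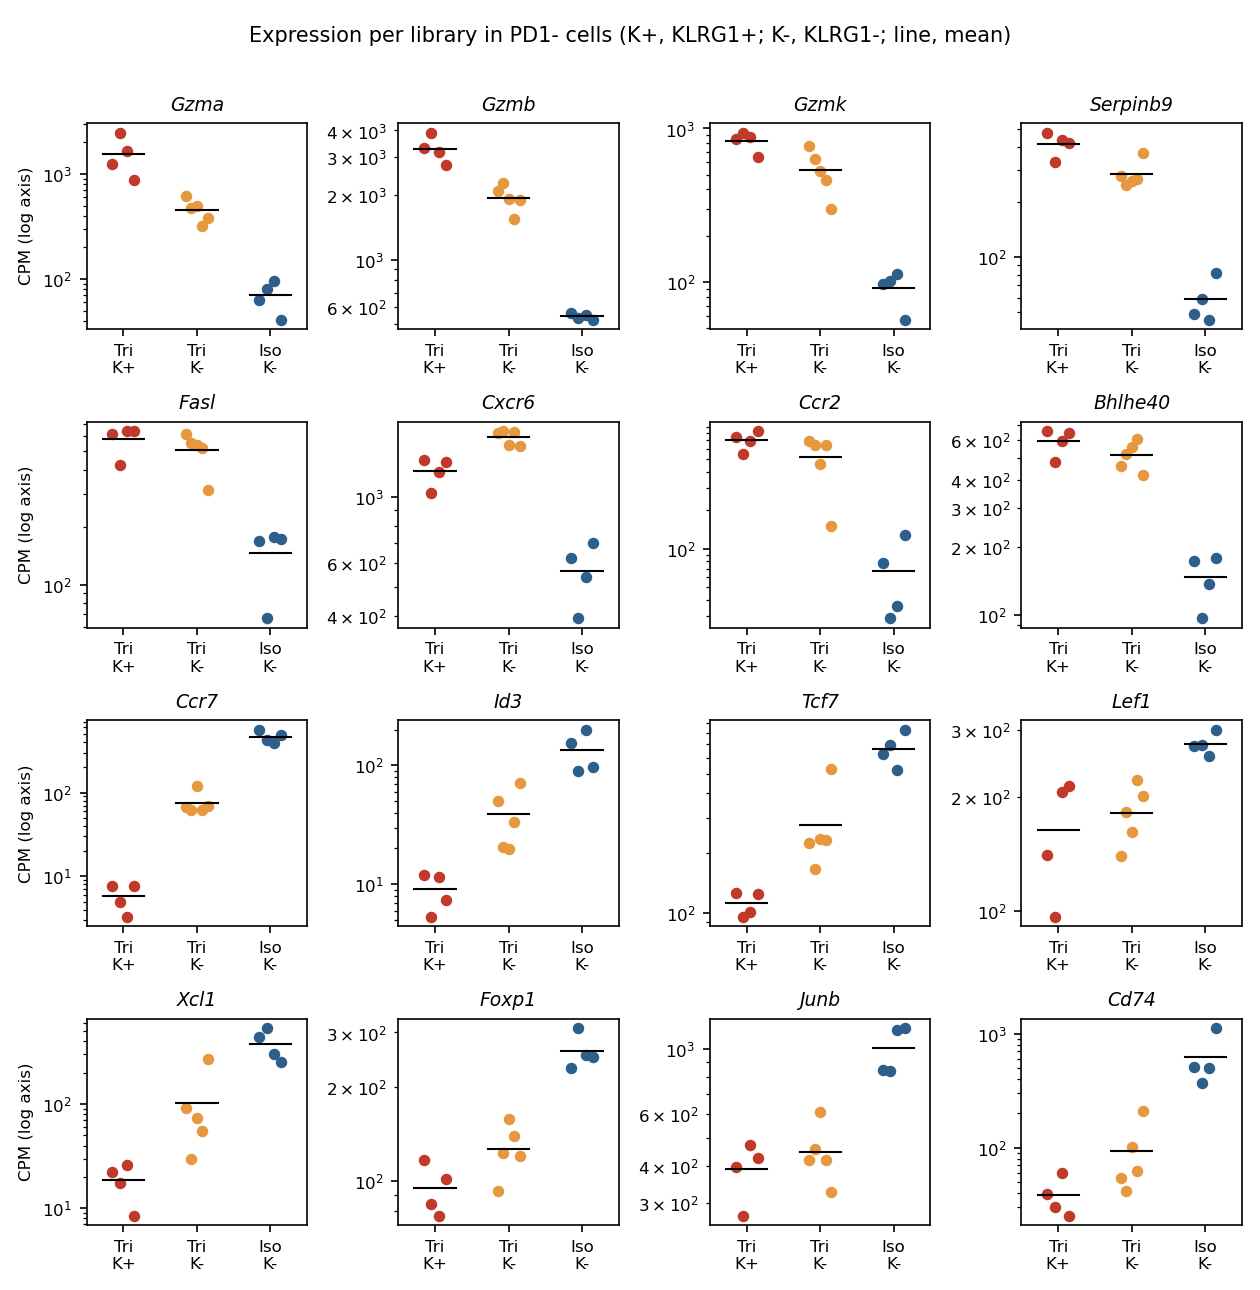
CPM on a log axis of 16 genes in each Tri PD1-KLRG1+ (red, 4), Tri PD1-KLRG1- (orange, 5) and Iso PD1-KLRG1- (blue, 4) library, with the group mean as a line. Effector genes in the first 2 rows are lowest in Iso PD1-KLRG1- cells, with Gzmb at 522 to 562 CPM there, and the genes in the last 2 rows are highest there, with Ccr7 at 393 to 562 CPM.

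The proximal promoters of Gzma, Id3 and Xcl1 are shown because these genes carry the effector and memory sides of the comparison with large changes. Each run gives the 250 bases before the RefSeq start site (GRCm38.p6), 5′ to 3′ on the gene's strand. Capitals mark matches to 4 short motifs searched on both strands: the T-box core TCACAC, the RUNX core TGTGGT, the TCF/LEF core CTTTGA and the E-box CAGCTG.
Gzma, chr13:113100982-113101231, minus strand: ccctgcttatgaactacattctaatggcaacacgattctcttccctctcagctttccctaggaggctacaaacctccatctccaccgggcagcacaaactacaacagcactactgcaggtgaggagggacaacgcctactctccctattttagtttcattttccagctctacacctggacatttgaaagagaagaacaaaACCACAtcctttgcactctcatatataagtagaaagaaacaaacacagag
Id3, chr4:136143572-136143821, plus strand: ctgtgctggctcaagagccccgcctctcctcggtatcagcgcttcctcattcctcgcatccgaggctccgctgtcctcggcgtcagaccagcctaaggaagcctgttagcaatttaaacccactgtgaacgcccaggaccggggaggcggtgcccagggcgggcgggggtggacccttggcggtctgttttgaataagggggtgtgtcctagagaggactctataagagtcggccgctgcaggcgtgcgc
Xcl1, chr1:164935523-164935772, minus strand: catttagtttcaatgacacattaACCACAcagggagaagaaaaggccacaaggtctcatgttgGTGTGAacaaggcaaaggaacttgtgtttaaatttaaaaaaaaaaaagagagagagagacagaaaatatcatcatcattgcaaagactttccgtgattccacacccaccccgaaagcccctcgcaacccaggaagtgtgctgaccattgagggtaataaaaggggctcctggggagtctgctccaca
The Gzma window held 1 RUNX core, at bases -50 to -45 from the start. The Xcl1 window held 1 RUNX core, at -227 to -222, and 1 T-box core, at -187 to -182, and the Id3 window held none of the 4. Among all 32851 promoter windows of this length, 12.3% held the T-box core, 14.0% the RUNX core, 13.8% the TCF/LEF core and 13.0% the E-box, so such matches are frequent. A match describes these letters alone.

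Killer lectin-like receptors, shared with NK cells, rose for 4 of 19 tested and fell for none, beside 1.29% higher and 1.6% lower over all genes. Klrk1 (ENSMUSG00000030149), encoding the activating receptor NKG2D, was at 743, 659, 740 and 902 CPM in Tri PD1-KLRG1+ libraries, against 388, 179, 282 and 287 CPM in Iso PD1-KLRG1- libraries (log2 fold change 1.41 ± 0.18, edgeR adjusted p = 4.91e-05). Klrc1, encoding the inhibitory receptor NKG2A, averaged 702 ± 53.6 CPM in Tri PD1-KLRG1+ and 179 ± 46.1 CPM in Iso PD1-KLRG1- libraries (1.97 ± 0.24, adjusted p = 2.26e-05). Klre1 rose by 1.37 ± 0.29 (adjusted p = 0.00761), a call that ended over all 27 libraries (0.559). Klrg1 was the fourth, and its rise is no finding because the gate was drawn on it. The list median was -0.83, since 11 members had negative values, none of them called.

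Chemokine receptors moved both ways. Ccr2 (ENSMUSG00000049103), the receptor of CCL2, was at 749, 551, 691 and 828 CPM in Tri PD1-KLRG1+ libraries, against 76.9, 28.5, 35.5 and 127 CPM in Iso PD1-KLRG1- libraries (log2 fold change 3.41 ± 0.58, edgeR adjusted p = 0.00103). Cxcr6, a receptor of tissue-resident and tumour-infiltrating T cells, averaged 1216 ± 135 CPM in Tri PD1-KLRG1+ and 564 ± 131 CPM in Iso PD1-KLRG1- libraries (1.12 ± 0.15, adjusted p = 0.000108). The groups did not overlap for Ccr2 or Cxcr6. Ccr8, a receptor of regulatory and skin-homing T cells, had counts in 1 Tri PD1-KLRG1+ library, at 4.00 CPM, and was at 18.2 to 36.5 CPM in Iso PD1-KLRG1- libraries (adjusted p = 0.0284). Its call ended without Tri PD1-KLRG1+ replicates 1 (0.0914), 3 (0.0851) and 4 (0.0942) and without Iso PD1-KLRG1- replicate 2 (0.0738). Of 15 chemokine receptors tested, 3 rose and 2 fell. In the list of 16 egress and residency genes 1 rose, Cxcr6, and 1 fell, Itgae.

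Among 17 integrin genes 5 rose and 1 fell, with a median of 1.00. Itgax, encoding the CD11c chain found on dendritic cells and effector T cells, was at 344, 266, 288 and 311 CPM in Tri PD1-KLRG1+ libraries, against 32.0, 16.9, 32.0 and 37.5 CPM in Iso PD1-KLRG1- libraries (log2 fold change 3.35 ± 0.62, edgeR adjusted p = 0.00256). Itga4, a chain of the VCAM-1 receptor VLA-4, rose by 1.44 ± 0.23 (adjusted p = 0.000668), and Itgal and Itgb2, the chains of LFA-1, by 1.00 ± 0.22 and 1.06 ± 0.18 (adjusted p = 0.00987 and 0.00109). The Itgax and Itgal calls ended over all 27 libraries (edgeR adjusted p = 0.0724 and 0.0652). Itgae, encoding the CD103 chain that retains T cells at epithelia, was at 1.11, 0, 0 and 5.44 CPM in Tri PD1-KLRG1+ libraries, against 112, 140, 61.5 and 198 CPM in Iso PD1-KLRG1- libraries (-7.07 ± 1.80, adjusted p = 0.0304). The Itgae groups did not overlap, but its adjusted p passed the threshold without any 1 of Tri PD1-KLRG1+ replicates 1 (0.087), 2 (0.072), 3 (0.0934) and 4 (0.0606) and of Iso PD1-KLRG1- replicates 1 (0.0521), 2 (0.0825) and 3 (0.0516).

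Of 22 cytokine receptors tested 3 rose and 2 fell, beside 1.29% higher and 1.6% lower over all genes. Il10ra, Il12rb2 and Il18rap, receptor chains for IL-10, IL-12 and IL-18, rose by 1.69 ± 0.29, 2.69 ± 0.57 and 1.32 ± 0.26 on the log2 scale (edgeR adjusted p = 0.00116, 0.0084 and 0.00457). Il12rb2 was at 172, 52.1, 58.4 and 196 CPM in Tri PD1-KLRG1+ libraries, against 22.8, 20.4, 1.10 and 29.3 CPM in Iso PD1-KLRG1- libraries, without overlap. Its call ended in the libraries without the RNA-number suffix (adjusted p = 0.113), over the 8 libraries alone (0.0631), over all 27 (0.196) and by limma-voom (0.0742). The Il18rap call also ended in the libraries without that suffix (edgeR adjusted p = 0.108). Il4ra, a receptor chain for IL-4 and IL-13, averaged 64.7 ± 39.5 CPM in Tri PD1-KLRG1+ and 223 ± 108 CPM in Iso PD1-KLRG1- libraries (-1.79 ± 0.30, adjusted p = 0.00102). The Il4ra call ended over all 27 libraries (edgeR adjusted p = 0.442). Il7r, which passes the survival signal of IL-7, was at 81.9, 255, 87.9 and 116.6 CPM in Tri PD1-KLRG1+ libraries, against 228, 280.0, 294 and 264 CPM in Iso PD1-KLRG1- libraries. Tri PD1-KLRG1+ replicate 2 overlapped the other group, and the adjusted p of 0.0457 rose above the threshold without any 1 of the 8 libraries except Tri PD1-KLRG1+ replicate 2, to at most 0.213.

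Inhibitory receptors of T cell exhaustion rose in part although both gates lack PD-1. Havcr2, encoding TIM-3, was at 155, 74.8, 118 and 84.7 CPM in Tri PD1-KLRG1+ libraries, against 18.5, 10.6, 15.1 and 21.2 CPM in Iso PD1-KLRG1- libraries (log2 fold change 2.72 ± 0.26, edgeR adjusted p = 5.89e-07). Tigit averaged 57.1 ± 21.4 CPM in Tri PD1-KLRG1+ and 16.2 ± 8.34 CPM in Iso PD1-KLRG1- libraries (1.82 ± 0.30, adjusted p = 0.000801). The Havcr2 and Tigit calls ended over all 27 libraries (edgeR adjusted p = 0.131 and 0.148). The Tigit call also ended by limma-voom. Of 17 members 4 rose and 1 fell, with a median of 0.17. The 4 became 2 without Tri PD1-KLRG1+ replicate 1 or 4 or Iso PD1-KLRG1- replicate 2 or 3. Lag3 was low in both groups, at 8.12 ± 5.62 CPM in Tri PD1-KLRG1+ and 7.26 ± 2.45 CPM in Iso PD1-KLRG1- libraries (adjusted p = 0.961), and Tox, a transcription factor of exhausted cells, had a log2 fold change of -0.63 (adjusted p = 0.338). Entpd1, encoding the ectonucleotidase CD39, rose by 1.74 ± 0.41 (adjusted p = 0.0178), a call that ended without Tri PD1-KLRG1+ replicates 1 (0.084) and 4 (0.114) and without Iso PD1-KLRG1- replicates 2 (0.0849) and 3 (0.071). Cd200, the ligand of an inhibitory receptor on myeloid cells, was at 0.453 CPM in 1 Tri PD1-KLRG1+ library and 0 in the other 3, against 11.7, 5.92, 5.00 and 7.98 CPM in Iso PD1-KLRG1- libraries (adjusted p = 0.0037).

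Costimulatory receptors rose for 3 of 15 and fell for 1, beside 1.29% higher and 1.6% lower over all genes. Slamf7, an activating receptor of killer cells, averaged 360 ± 52.2 CPM in Tri PD1-KLRG1+ and 151 ± 20.1 CPM in Iso PD1-KLRG1- libraries (log2 fold change 1.25 ± 0.20, edgeR adjusted p = 0.000705). Tnfrsf9, encoding 4-1BB, rose by 0.89 ± 0.22 (adjusted p = 0.0232), and the call ended without Iso PD1-KLRG1- replicates 2 (0.0956) and 3 (0.0878). The 3 rises became 1 without Iso PD1-KLRG1- replicate 2 or 3. Cd7, a surface protein of T and NK cells, fell by 2.23 ± 0.37 (adjusted p = 0.000881). In T cell receptor signalling 4 of 20 rose and none fell, all by less than 1 on the log2 scale. The 4 were Fyn, Ptpn22, Ubash3a and Ptprc, the CD45 gene of the sort. Ptpn22, a phosphatase that restrains receptor signals, rose by 0.90 ± 0.18 (adjusted p = 0.00457), a call that ended without the term for the RNA-number suffix (0.0592). That list's count became 1 without Tri PD1-KLRG1+ replicate 1 or Iso PD1-KLRG1- replicates 2 or 3, and 2 without Tri PD1-KLRG1+ replicates 3 or 4 or Iso PD1-KLRG1- replicate 1.

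Cell cycle and glycolysis genes leaned upward with few calls. Of 32 proliferation genes 31 had a positive log2 fold change, with a median of 0.57, but only Ccnb2, encoding cyclin B2 (1.498 ± 0.33, edgeR adjusted p = 0.0112), and Hmgb2, a chromatin protein of dividing cells (0.83 ± 0.18, adjusted p = 0.00979), rose. Mki67, encoding the proliferation marker Ki-67, averaged 119 ± 22.8 CPM in Tri PD1-KLRG1+ and 78.4 ± 24.5 CPM in Iso PD1-KLRG1- libraries (adjusted p = 0.397). Of 17 glycolysis genes 16 were positive, with a median of 0.42, and 4 rose. Slc2a3, encoding the glucose transporter GLUT3, averaged 215 ± 90.3 CPM in Tri PD1-KLRG1+ and 53.2 ± 19.8 CPM in Iso PD1-KLRG1- libraries (1.96 ± 0.32, adjusted p = 0.000796), and Pfkp, the platelet type of phosphofructokinase, rose by 1.17 ± 0.22 (adjusted p = 0.00256). The 4 glycolysis calls became 2 without Tri PD1-KLRG1+ replicates 1, 3 or 4 or Iso PD1-KLRG1- replicates 1, 2 or 3, and 3 without Tri PD1-KLRG1+ replicate 2. Over all 27 libraries the calls of Ccnb2 (edgeR adjusted p = 0.0569), Hmgb2 (0.119), Slc2a3 (0.0762) and Pfkp (0.136) ended.

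Of 29 AP-1 and immediate-early genes 4 fell, none rose, and the median was -0.79. The 4 became 2 without Tri PD1-KLRG1+ replicate 1 or 4 or Iso PD1-KLRG1- replicate 2 or 3. Junb, a subunit of the AP-1 transcription factor, was at 397, 272, 473 and 427 CPM in Tri PD1-KLRG1+ libraries, against 847, 836, 1156 and 1171 CPM in Iso PD1-KLRG1- libraries (log2 fold change -1.36 ± 0.19, edgeR adjusted p = 0.000166). Nfkbia, the inhibitor of NF-kappa-B, fell by 1.28 ± 0.22 (adjusted p = 0.00103), a call that ended over all 27 libraries (0.154). Fos had lower values, at 31.4 ± 36.1 CPM in Tri PD1-KLRG1+ and 157 ± 68.5 CPM in Iso PD1-KLRG1- libraries, and did not pass (adjusted p = 0.112). These genes also respond to tissue digestion, and the part of handling in the values was not tested. Of 13 heat shock genes 2 fell, Hsp90ab1 and Hspe1, beside 1.6% lower over all genes, and the median was -0.21 beside -0.11. Neither call held without Tri PD1-KLRG1+ replicates 1, 3 or 4 or Iso PD1-KLRG1- replicate 2. Interferon-stimulated genes had 2 of 31 called, both higher, with a median of -0.15, beside 1.29% higher over all genes. Only 1 was called without Tri PD1-KLRG1+ replicate 1 or Iso PD1-KLRG1- replicate 2 or 3. In the GIMAP family of lymphocyte GTPases Gimap7 rose by 1.07 ± 0.18 (adjusted p = 0.00106), and Gimap4 was the other of 2 called among 8, and 1 was called without any 1 library except Iso PD1-KLRG1- replicate 1. In the BCL2 family Bcl2a1d, one of several near-identical copies of a survival gene between which reads may be split, rose by 1.52 ± 0.25 (adjusted p = 0.000737). It was the single call among 16, beside 1.29% higher over all genes.

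**Figure D3:**
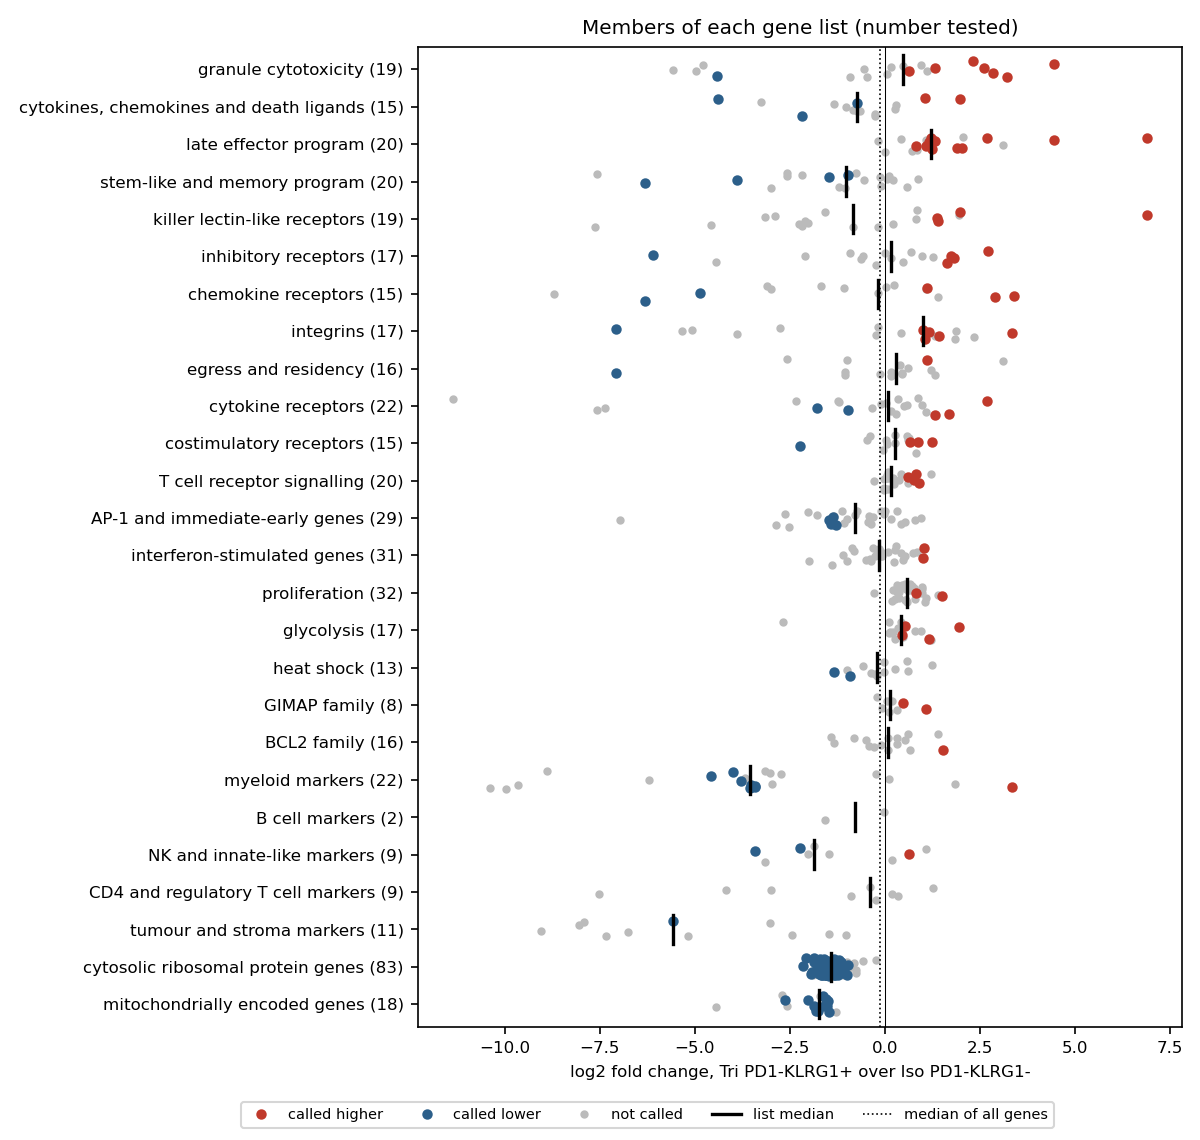
Log2 fold change of Tri PD1-KLRG1+ over Iso PD1-KLRG1- cells for each member of 26 gene lists, with red and blue points for called genes, grey for the rest, black bars for list medians and a dotted line at the median of all genes. The late effector list has 12 red points and a median of 1.23, and the ribosomal protein list has 63 blue points and a median of -1.43.

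Ribosomal protein genes made up 63 of the 224 genes called lower. All 83 tested had a negative log2 fold change, from -2.16 to -0.23 with a median of -1.43, and none rose. Rps19 was at 558, 986, 684 and 365 CPM in Tri PD1-KLRG1+ libraries, against 1933, 3275, 2379 and 962 CPM in Iso PD1-KLRG1- libraries (-1.69 ± 0.23, edgeR adjusted p = 0.000123). Iso PD1-KLRG1- replicate 4 was the lowest of its group and overlapped Tri PD1-KLRG1+ replicate 2. The groups were separate in only 2 of the 83 genes, against 11.0% of all genes tested in either direction. As a share of all counts these genes held 1.56% to 4.38% in Tri PD1-KLRG1+ libraries and 2.98% to 11.6% in Iso PD1-KLRG1- libraries. The 63 calls became 33, 47 and 37 without Tri PD1-KLRG1+ replicates 1, 3 and 4, and 29 and 47 without Iso PD1-KLRG1- replicates 2 and 3. Short genes of this kind have many processed copies in the genome, so their counts also depend on how shared reads were assigned. Mitochondrially encoded genes, most of which encode subunits of the respiratory chain, fell in 12 of 18 tested, with a median of -1.73. The 12 became 7 without Tri PD1-KLRG1+ replicates 1, 3 or 4 or Iso PD1-KLRG1- replicates 2 or 3.

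Several myeloid transcripts were lower in Tri PD1-KLRG1+ libraries. In bulk RNA, fewer cells of a type and less RNA per cell cannot be told apart. Of 22 myeloid markers tested 7 fell and 1, Itgax, rose, with a median of -3.53. Cd74, the invariant chain of MHC class II, was at 39.2, 30.0, 59.2 and 25.3 CPM in Tri PD1-KLRG1+ libraries, against 512.5, 368, 502.5 and 1114 CPM in Iso PD1-KLRG1- libraries (log2 fold change -3.99 ± 0.53, edgeR adjusted p = 7.68e-05). H2-Eb1 and H2-Ab1, class II chains, fell by 4.58 ± 0.68 and 3.51 ± 0.58, and Fcer1g, an Fc receptor signalling chain of myeloid and NK cells, by 3.42 ± 0.54 (adjusted p = 0.000312, 0.000796 and 0.000564). The H2-Eb1 and H2-Ab1 calls ended over all 27 libraries (edgeR adjusted p = 0.0502 and 0.16). The Fcer1g call ended by limma-voom (0.0619). Summed over 23 listed markers, myeloid transcripts ranged from 765 to 1002 CPM in Tri PD1-KLRG1+ libraries and from 1209 to 6030 CPM in Iso PD1-KLRG1- libraries. The sum includes Itgax, which effector T cells also express and which was higher in Tri PD1-KLRG1+ libraries. In the Tri PD1-KLRG1+ libraries 5 of the 23 markers, Adgre1, Cd14, Ms4a7, S100a8 and S100a9, had no count. Without Iso PD1-KLRG1- replicate 4 the number of myeloid markers called lower was 5.

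Further marker sums were measured in the same way. Tumour and stroma markers summed to 35.9 to 97.8 CPM in Tri PD1-KLRG1+ and 165 to 347 CPM in Iso PD1-KLRG1- libraries, with 7 of 16 members, among them Epcam and Dcn, at 0 in Tri PD1-KLRG1+. Of the 11 tested 1 fell, the matrix gene Fn1, with a list median of -5.57, or -4.86 with the 3 tested members that had no count in Tri PD1-KLRG1+ set to a floor of 3 counts; that call ended without any 1 library except Iso PD1-KLRG1- replicate 1. B cell markers summed to 6.84 to 19.4 CPM in Tri PD1-KLRG1+ and 32.2 to 37.3 CPM in Iso PD1-KLRG1- libraries, with 6 of 8 members at 0 in Tri PD1-KLRG1+. NK and innate-like markers, which include Nkg7, summed to 3407 to 6699 CPM in Tri PD1-KLRG1+ and 2633 to 3985 CPM in Iso PD1-KLRG1- libraries, and Ncr1 was at 0 in Tri PD1-KLRG1+. Of 9 NK and innate-like markers tested 1 rose and 2 fell, and neither of 2 B cell markers tested was called. CD4 and regulatory T cell markers summed to 120 to 162 CPM in Tri PD1-KLRG1+ and 128 to 219 CPM in Iso PD1-KLRG1- libraries, with none of 9 called and Cd4 at 0 in both. For genes detected, mitochondrial share, myeloid, B cell and tumour or stroma sums the groups did not overlap, and the 2-sided exact permutation p was 0.0286, the smallest that 4 against 4 libraries allow. Adjusted by Benjamini-Hochberg over 9 measures it was 0.0514, so none passed. The part of these measures in the gene differences was not tested.

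**Figure D4:**
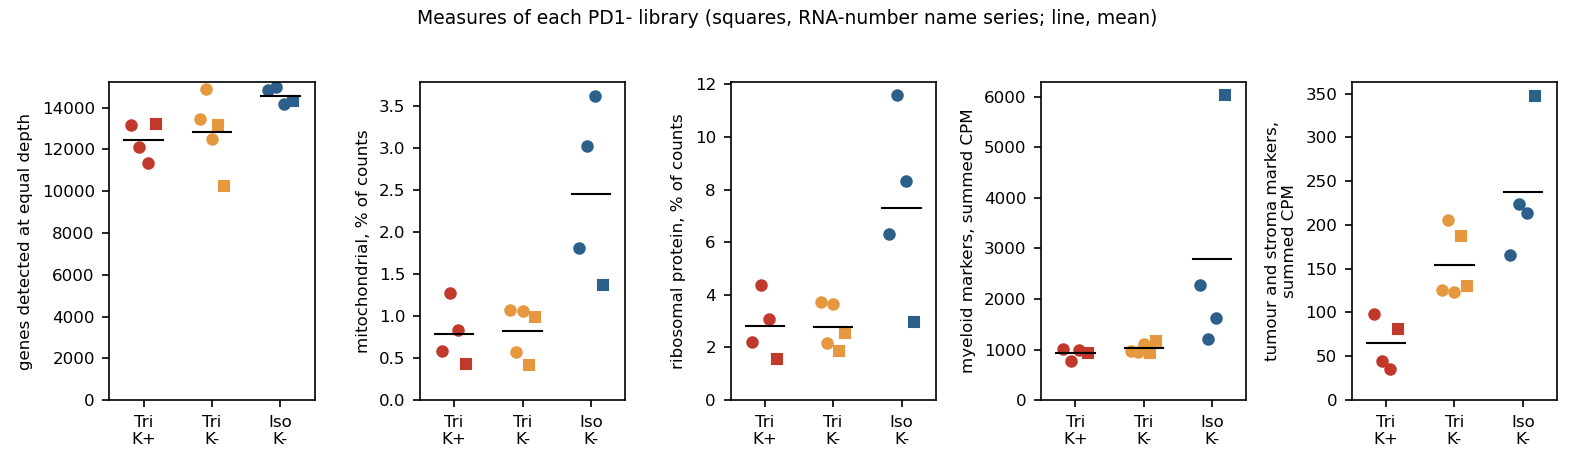
Genes with a count at equal depth, mitochondrial and ribosomal protein shares of counts in percent, and summed CPM of myeloid and of tumour and stroma markers in each Tri PD1-KLRG1+ (red), Tri PD1-KLRG1- (orange) and Iso PD1-KLRG1- (blue) library, with group means as lines and squares for libraries of the RNA-number name series. Iso PD1-KLRG1- replicate 4, the blue square, reaches 6030 CPM of myeloid markers but has a ribosomal protein share of 2.98%.

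Other large changes concerned genes outside these groups. They were named only if the libraries of the compared groups did not overlap, so their separation adds no support. Esm1, encoding the secreted proteoglycan endocan, was at 74.5, 38.8, 50.8 and 76.6 CPM in Tri PD1-KLRG1+ libraries, against 1.79, 0.382, 0 and 0.497 CPM in Iso PD1-KLRG1- libraries. The edgeR adjusted p of 0.0330 exceeded the threshold without Tri PD1-KLRG1+ replicates 1 (0.0748), 3 (0.0508) and 4 (0.0766) and without Iso PD1-KLRG1- replicates 2 (0.124), 3 (0.0932) and 4 (0.0835). Arsb, a lysosomal sulfatase, rose by 2.84 ± 0.37 (adjusted p = 7.53e-05), and Pik3ap1, an adaptor of PI3-kinase, by 3.06 ± 0.50 (adjusted p = 0.000729). Among falling genes, Igfbp4, an insulin-like growth factor binding protein, had 0.256, 0, 0.306 and 0 CPM in Tri PD1-KLRG1+ libraries, against 134, 171, 77.7 and 167 CPM in Iso PD1-KLRG1- libraries (adjusted p = 0.00658). Dapl1 was at 0.566 to 3.16 CPM in Tri PD1-KLRG1+ libraries and at 74.8 to 211 CPM in Iso PD1-KLRG1- libraries (log2 fold change -6.18 ± 1.29, adjusted p = 0.00682). Nrp1, a coreceptor for semaphorins and VEGF, had counts in 1 Tri PD1-KLRG1+ library, at 4.78 CPM, against 18.5 to 50.5 CPM in Iso PD1-KLRG1- libraries (adjusted p = 0.0037). Its call ended in the libraries without the RNA-number suffix (edgeR adjusted p = 0.0536) and over the 8 libraries alone (0.0858). Tgfbi, an extracellular matrix protein induced by TGF-beta, had no count in Tri PD1-KLRG1+ libraries and 14.6, 13.1, 47.9 and 189 CPM in Iso PD1-KLRG1- libraries, at least 868-fold lower if the 4 libraries together held 3 counts, a bound that covers counting error only. Without Iso PD1-KLRG1- replicate 4, which held the highest value, the bound was 330-fold.

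The fold change can be split at the Tri PD1-KLRG1- libraries, which share a treatment with one group and a gate with the other. The gate step is Tri PD1-KLRG1+ over Tri PD1-KLRG1-, the treatment step is Tri PD1-KLRG1- over Iso PD1-KLRG1-, and their log2 values add up to the fold change. Each step shares libraries with the other and with the comparison. On its own the gate step had 1 called gene, Ccr7 (0.00714% of genes tested), and the treatment step had 302 (2.16%). Over the 181 genes called higher, the median gate step was 0.23 and the median treatment step 0.98. Over the 224 genes called lower, these medians were -0.25 and -1.31. Ribosomal protein genes had a median gate step of -0.10 and a median treatment step of -1.30. A step that was not called is not shown to be 0: Klrg1, on which the gate was drawn, had a gate step of 3.63 with an adjusted p of 0.0958.

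Inequality of the steps was tested directly. It was called for 9 genes (0.0642%), each with the larger treatment step, while 991 had an unadjusted p under 0.05 (edgeR). Cxcr6 was at 1216 ± 135 CPM in Tri PD1-KLRG1+, 1575 ± 86.6 CPM in Tri PD1-KLRG1- and 564 ± 131 CPM in Iso PD1-KLRG1- libraries, with a gate step of -0.35 and a treatment step of 1.46 (adjusted p of the inequality = 0.00137). Klrk1 had steps of -0.27 and 1.68 (adjusted p = 0.00299), Klrc1 of -0.10 and 2.07 (0.0172) and Bhlhe40 of 0.23 and 1.80 (0.0271). For all 9 the gate step was the more negative one. Some other fits called genes in both directions: the gate step was the more positive one for 66 genes and the more negative one for 113 by DESeq2, for 8 and 9 by limma-voom, and for 76 and 134 without a low-count filter. The number of such genes was 3 without Tri PD1-KLRG1+ replicate 2 and 2 without its replicate 4. At the other side, Ccr7 was at 5.87 ± 2.15 CPM in Tri PD1-KLRG1+, 75.9 CPM on average in Tri PD1-KLRG1- and 467 ± 75.2 CPM in Iso PD1-KLRG1- libraries, with steps of -3.70 and -2.60. Id3 averaged 9.03 ± 3.24, 38.9 and 135 ± 52.1 CPM in these groups in the same order, with steps of -2.14 and -1.76. Gzma averaged 1558 ± 687, 456 and 70.4 ± 24.0 CPM, and its treatment step of 2.97 was larger than its gate step of 1.48. For these 3 genes the Tri PD1-KLRG1- mean lay between the other means, and unequal steps were not called.

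**Figure D5:**
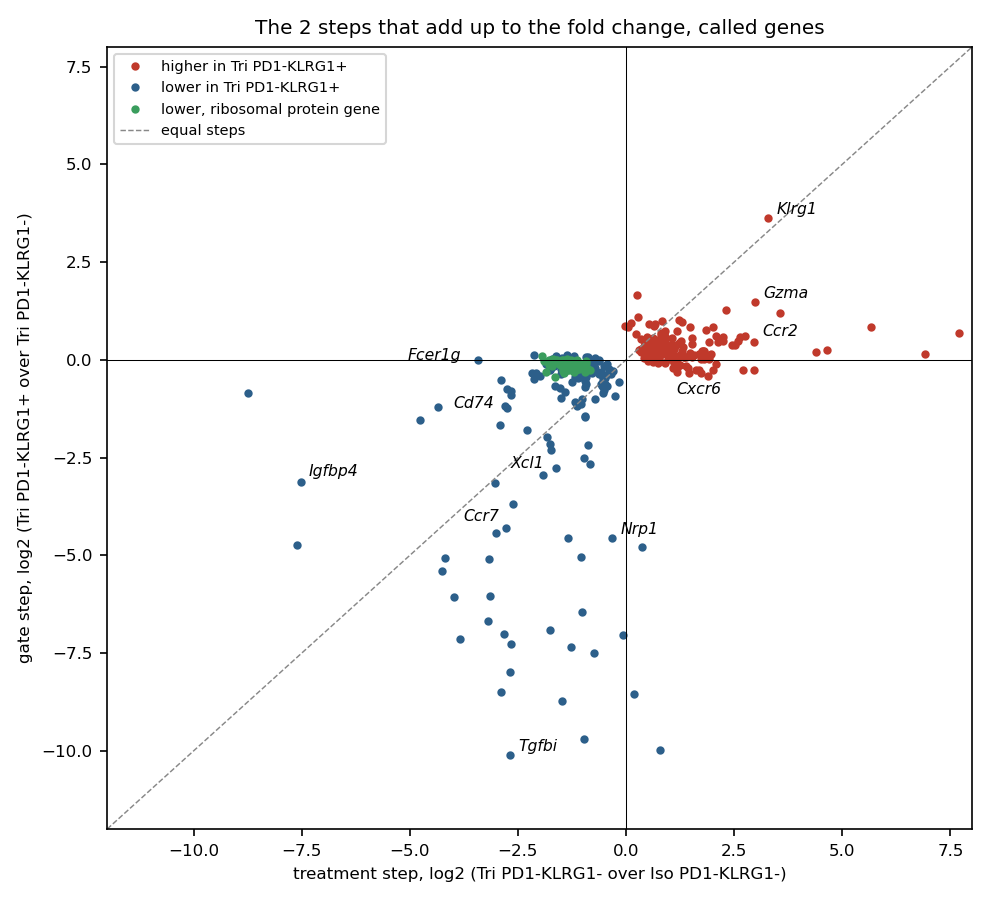
Gate step (vertical axis, log2 of Tri PD1-KLRG1+ over Tri PD1-KLRG1-) against treatment step (horizontal axis, log2 of Tri PD1-KLRG1- over Iso PD1-KLRG1-) of the called genes; 2 lie outside the axes. The steps sum to the fold change that chose the genes, and the called higher genes have median steps of 0.23 (gate) and 0.98 (treatment).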

How the data were processed

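The deposited table held raw read counts, whole numbers per mouse gene, with no normalisation by the authors, for 27 libraries and 47729 Ensembl IDs. Per the submitters' processing notes DESeq2 1.26.0 was used, in a role not named. Aligner, counter, genome build and strand setting were each not given in the sources used here. GENCODE M21 gave symbols for 47224 IDs.

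edgeR 4.0.16 (R 4.3.3) was fitted with TMM scaling, filterByExpr at a minimum count of 10 and a robust quasi-likelihood model to 23 libraries, with a mean per group and a term for an RNA-number suffix in the library names. The 4 Iso PD1-KLRG1+ libraries were left out because earlier results of these data showed that they hold few genes and would inflate the spread. They had 5832 to 9427 genes with a count, and 1 of them held 93198 counts in total. The Tri PD1+ libraries, also in neither group, were kept. An alternative over all 27 libraries called 61 genes higher and 94 lower. Benjamini-Hochberg adjusted p under 0.05 was called; SE is the log2 fold change over the square root of F. Gene CPM is TMM-scaled, and marker sums and shares use raw totals. Members and the 24 gene lists were chosen with earlier results of these data known. Named genes were those of the sort, the 12 largest changes per direction with at least 20 CPM and separate groups, up to 4 called members per list, and Klrg1, Gzma and Id3. Alternatives included limma 3.58.1 and DESeq2 1.42.0. The fit was tested on simulated data. RefSeq held promoters of 68 of the 85 named genes. A few genes are not reported here.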

Additional observations from a re-analysis of the deposited data

Results flagged for a closer look

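In 194 groups of 4 libraries checked, 15 single libraries lay far from the other 3 of their group. The cut was set to flag about 1 in 20 groups of independent, normally distributed values. The groups here share libraries, and 1 library with counts beside 3 at 0 is always flagged. The 15 are therefore not compared with that rate. Iso PD1-KLRG1- replicate 4 was the high one for Spp1 (1322 CPM against 8.98 to 12.8 in the other 3), Ptprc (2314 against 1373 to 1524), Itgal (777 against 412 to 459), Fyn (636 against 360 to 399) and Pfkp (489 against 263 to 278). Fasl was low in replicate 2 of both groups, at 424 CPM in Tri PD1-KLRG1+ (619 to 639 in the others) and 66.3 CPM in Iso PD1-KLRG1- (169 to 177 in the others). In Tri PD1-KLRG1+ libraries, Lta reached 20.1 CPM in replicate 3 (10.4 to 11.4 in the others) and Nsg2 7.93 CPM in replicate 4 (0 to 0.427 in the others). A single Tri PD1-KLRG1+ library held all counts of its group for Ccr8 (4.00 CPM, replicate 2), Nrp1 (4.78 CPM, replicate 1), Spp1 (0.683 CPM, replicate 1), Rflnb (0.566 CPM, replicate 4) and Cd200 (0.453 CPM, replicate 4). Summed B cell markers were 37.3 CPM in Iso PD1-KLRG1- replicate 3 and 32.2 to 32.9 CPM in the other 3.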

How the results depend on the processing

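No called direction turned round under any alternative. Of 181 genes called higher and 224 lower, the counts were 119 and 136 without the name-series term, 120 and 129 in libraries without the RNA-number suffix, 61 and 94 with all 27 libraries, and 349 and 608 by DESeq2. Genes called lower numbered 385 without a low-count filter and 400 by limma-voom. The share of calls that were higher was 44.7%, against 27.7% by limma-voom. Leaving out 1 library of either group gave 111 to 200 higher and 109 to 246 lower. The 9 genes with unequal steps became 210 without a filter, 1 without suffixed libraries, 2 with all 27, 179 by DESeq2, 17 by limma-voom and 2 to 13 when 1 library was left out. The cause was not tested. A replicate block gave 178 higher, 225 lower and 12 unequal. Same-numbered libraries of Tri PD1-KLRG1+ and Iso PD1-KLRG1- deviated with correlations of 0.0328 to 0.145. Those of Tri PD1-KLRG1+ and Tri PD1-KLRG1- did so with -0.0667 to 0.097, so the numbers were not taken as pairs in the main fit. The limma-voom alternative treated same-numbered libraries of a treatment as the same animal, which the labels do not state. Its consensus correlation between such libraries was -0.0018. The gate step, with 1 called gene, had 2 with a replicate block, and 4 in the 19 Tri libraries alone with or without one, fits chosen after seeing the data; in these 19 Klrg1 was called (edgeR adjusted p = 0.00773 with the block and 0.00058 without). Leaving out Tri PD1-KLRG1- replicate 5, chosen after seeing the data, gave 218 and 251. With 4 libraries against 4, no library measure could go below an exact p of 0.0286.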

Other observations

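Genes outside the lists, chosen after their values were seen, also differed (edgeR, adjusted p under 0.05). Runx2, a transcription factor of the RUNX family, averaged 135 CPM in Tri PD1-KLRG1+ and 51.1 CPM in Iso PD1-KLRG1- libraries, and Rora, a nuclear receptor, 105 and 23.8 CPM in the same order. Osbpl3, an oxysterol binding protein, averaged 230 CPM in Tri PD1-KLRG1+ and 47.7 CPM in Iso PD1-KLRG1- libraries. Among genes that fell, Npm1, a nucleolar protein of ribosome assembly, averaged 239 CPM in Tri PD1-KLRG1+ and 683 CPM in Iso PD1-KLRG1- libraries. Eef1a1, the translation elongation factor, averaged 2136 and 6118 CPM in the same order, and Srm, the spermidine synthase, 24.8 and 122 CPM.

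Use of T cell receptor beta variable segments was described in each library. The effective number of segments (inverse Simpson index) was 13.6 to 15.4 in Tri PD1-KLRG1+ and 14.1 to 15.03 in Iso PD1-KLRG1- libraries, from 3717 to 6179 and 4383 to 10034 segment counts. The most abundant segment held 10.6% to 15.3% of them in Tri PD1-KLRG1+ and 11.1% to 13.0% in Iso PD1-KLRG1- libraries. No test was made of these values.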
